A study of Mus musculus with 12 samples.

Results

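Tuft cells are rare chemosensory cells of the intestinal epithelium, and 7 genes that mark them were followed here in the proximal ileum of male C57BL/6 mice treated with TCDD, a dioxin that activates the aryl hydrocarbon receptor (AhR). The genes were Dclk1, Trpm5, Il17rb, Sh2d6, Ltc4s, Pou2f3 and Avil, chosen by symbol, and all 7 were among the 46078 genes counted. The epithelium was scraped from the proximal ileum and its total RNA was sequenced. The mice received 7 gavages at 4-day intervals from an age of 28 days, and tissue was taken at an age of 56 days. They were given sesame oil (vehicle) or TCDD in it at 3, 10 or 30 µg/kg (TCDD 3, TCDD 10 and TCDD 30). Each of the 4 groups held 3 libraries, 12 in all, and no strain, allele or agent other than TCDD differed between them. The labels describe the 3 libraries of a dose as biological replicates.

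Tuft cells carry taste-receptor signalling proteins and answer luminal signals, among them those of parasites and protists. They release interleukin-25, cysteinyl leukotrienes and acetylcholine. The interleukin-25 branch acts on lymphoid cells that make interleukin-13, which in turn acts on epithelial progenitors and raises the number of tuft and goblet cells. Pou2f3 is the transcription factor on which the tuft lineage depends. Because a whole epithelial scraping was sequenced, fewer tuft cells and less RNA per tuft cell cannot be told apart in any value below.

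Gene counts totalled 11695887 to 22180274 per library. The AhR target Cyp1a1, the cytochrome P450 gene that dioxins induce most readily, was between 19.0 and 27.5 CPM (counts divided by the scaled library size) in vehicle, between 22.2 and 141 in TCDD 3, between 873 and 1333 in TCDD 10, and between 2608 and 3251 in TCDD 30, so the doses were ordered as labelled apart from an overlap of vehicle and TCDD 3. The pan-epithelial gene Epcam was at 1041 to 1312 CPM in all 12 libraries. The 3 read indexes of the libraries occurred once per dose, in the order of the replicate numbers used here. The labels give no sequencing date, so dose and any batch shared by a dose cannot be told apart. In TCDD 30, at most 25.4% of the counted entries fell outside genes, against at least 28.0% in the other libraries.

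All 7 genes were detected in every library. The lowest count was 13 (Ltc4s in TCDD 10) and the highest 853 (Trpm5 in TCDD 30). Levels of different genes were compared as CPM per kilobase of merged exons in GENCODE M21, over all 12 libraries. The order was Sh2d6 with a mean of 3.64 (range 2.52 to 5.40), Trpm5 with 3.61 (range 1.66 to 7.30), Avil with 2.58 (range 1.73 to 3.49), Ltc4s with 2.29 (range 0.930 to 3.89), Dclk1 with 1.13 (range 0.768 to 1.54), Il17rb with 0.741 (range 0.441 to 1.06) and Pou2f3 with 0.527 (range 0.266 to 0.832). Each gene overlapped its neighbour in that order, whereas every library's Sh2d6 level was above every library's Dclk1 level. The merged exons of Dclk1 span 15296 bases over all its isoforms, so its level per kilobase is a low estimate for any 1 isoform.

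The genes lie on 7 chromosomes (build GRCm38). Dclk1, which encodes a doublecortin-like kinase, is at chr3:55242364-55539068. Trpm5, the cation channel downstream of taste receptors, is at chr7:143069153-143094642. Il17rb, the interleukin-25 receptor subunit, is at chr14:29996135-30008896, and Sh2d6, an SH2 domain adaptor, is at chr6:72513641-72521707. Ltc4s, the synthase of leukotriene C4, is at chr11:50236461-50238616. Pou2f3 is at chr9:43123939-43210369, and Avil, the actin-binding protein advillin, is at chr10:127000709-127020994. Exons of Trpm5, Il17rb, Avil, Ltc4s and Dclk1 overlap genes on the other strand that also had counts, namely Tssc4, Actr8, Tsfm, Gm26542 and, with at most 3 counts in a library, Gm42609. The strand setting of the counting is not given in the sources used here, so reads in the shared stretches cannot be told apart. The mean level of Tssc4 was 8.17 CPM in vehicle and 10.2 CPM in TCDD 30.

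The core of the dioxin response element, the site that the activated AhR binds, is GCGTG. It was searched on both strands in the 250 bases before each RefSeq start (build GRCm38.p6), and is shown because the treatment acts through that receptor. It was present at 2 of the 6 genes that the table held, Dclk1 and Il17rb, and in 28.2% of all 32851 promoters of that length. Capitals mark the core, which reads CACGC where it lies on the opposite strand. The Dclk1 stretch is chr3:55242114-55242363 on the plus strand, before the first of 2 starts, and the Il17rb stretch is chr14:30008897-30009146 on the minus strand.
Dclk1: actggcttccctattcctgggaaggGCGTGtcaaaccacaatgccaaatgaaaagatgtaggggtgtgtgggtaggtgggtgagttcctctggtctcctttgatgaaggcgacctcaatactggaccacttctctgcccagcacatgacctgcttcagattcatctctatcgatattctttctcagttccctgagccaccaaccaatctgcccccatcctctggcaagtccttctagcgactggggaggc
Il17rb: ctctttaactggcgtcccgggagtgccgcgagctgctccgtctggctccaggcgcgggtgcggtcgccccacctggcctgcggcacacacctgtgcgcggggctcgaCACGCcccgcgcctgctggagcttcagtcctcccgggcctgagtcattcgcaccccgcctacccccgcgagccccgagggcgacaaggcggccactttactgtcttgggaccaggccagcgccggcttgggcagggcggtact
The second Dclk1 start held no core, and the counts per gene do not separate the starts. The octamer ATGCAAAT, bound by POU factors such as Pou2f3, was in none of the 6 promoters and in 1.6% of all promoters.

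Against vehicle, none of the 7 genes changed at any dose by the rule used throughout (adjusted p under 0.05 in edgeR's quasi-likelihood test with Benjamini-Hochberg adjustment over 15823 genes, and a change of at least 1.5-fold). Over all genes the rule called 0.228% in TCDD 3, 0.613% in TCDD 10 and 3.97% in TCDD 30. Before adjustment, 1 of the 7 genes had p under 0.05 in TCDD 3, 2 in TCDD 10 and 2 in TCDD 30. DESeq2 and limma-voom also called 0 at each dose. The median log2 change of the 7 genes against vehicle was 0.21 in TCDD 3, 0.27 in TCDD 10 and 0.08 in TCDD 30, beside 0.00, -0.01 and -0.02 over all genes tested. In TCDD 10, 6 of the 7 fitted changes were above 0, and in TCDD 30 4 were. The slope over dose rank called 0 of the 7 genes in edgeR, DESeq2 and limma-voom. In edgeR, 1 of them had unadjusted p under 0.05 for the slope, and 3.29% of all genes were called. The edgeR test of any difference between groups called 0 of the 7, with 2 at unadjusted p under 0.05, and 6.78% of all genes. For any difference DESeq2 called 2 of the 7 and limma-voom 0, and their shares of all genes are not given here.

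**Figure D1:**
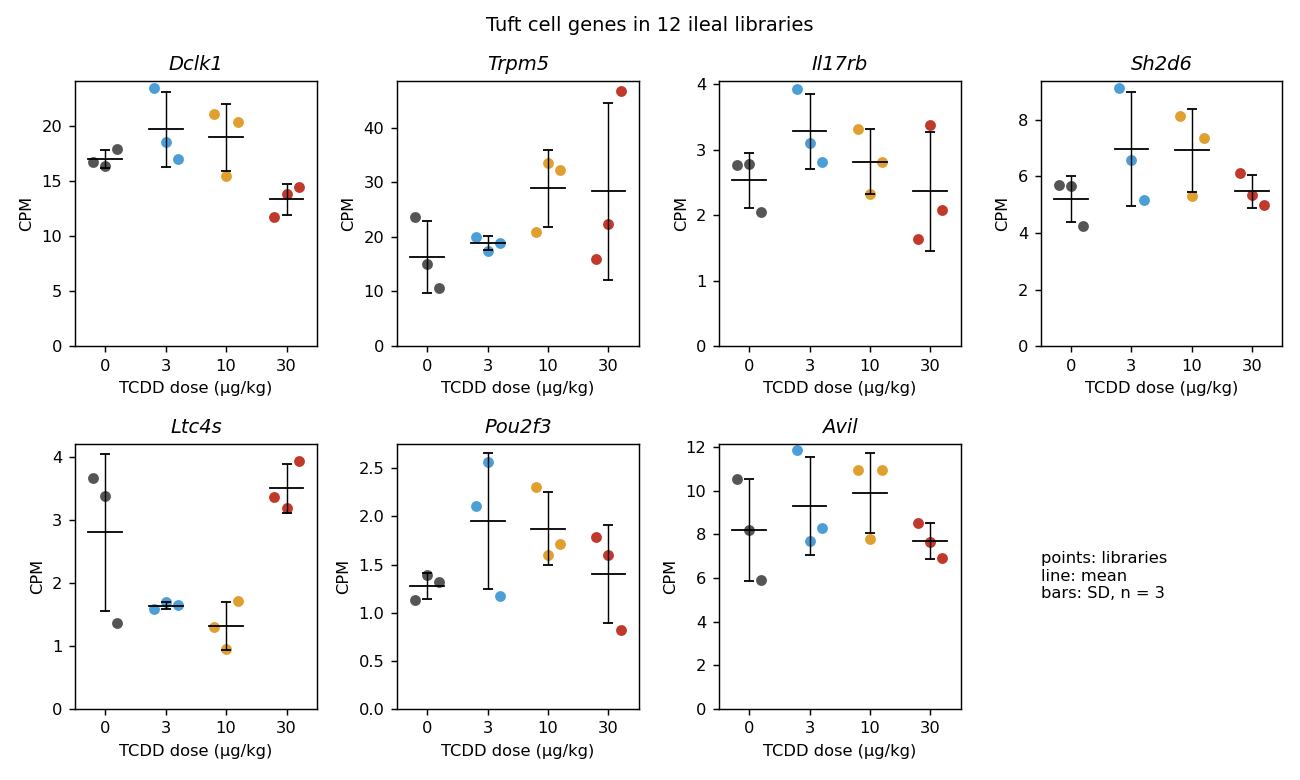
CPM of each tuft cell gene (vertical axis, from 0) by TCDD dose in µg/kg (horizontal axis); points are libraries, lines are means and bars are SD of 3 libraries. The Dclk1 libraries of TCDD 30 (11.8 to 14.5 CPM) lie below all others, and the Ltc4s libraries of TCDD 30 (3.20 to 3.94 CPM) lie above those of TCDD 3 and TCDD 10.

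Ltc4s, which joins glutathione to leukotriene A4 in the first committed step of cysteinyl leukotriene synthesis, was the 1 gene of the 7 called between doses. Its level was 3.67, 3.38 and 1.37 CPM in vehicle replicates 1 to 3, and 1.59, 1.69 and 1.64 CPM in TCDD 3. It was 1.30, 0.943 and 1.72 CPM in TCDD 10, and 3.37, 3.20 and 3.94 CPM in TCDD 30. The libraries of TCDD 30 and 2 of the 3 vehicle libraries were high, vehicle replicate 3 was as low as the libraries of TCDD 3 and TCDD 10, and no library of TCDD 30 overlapped those of TCDD 3 or TCDD 10. Ltc4s was 2.64-fold higher in TCDD 30 than in TCDD 10 (log2 1.40 ± 0.35 SE, n = 3 and 3, edgeR adjusted p = 0.0404), a comparison in which 2.77% of all genes were called. Against TCDD 3 it was 2.13-fold higher (log2 1.09 ± 0.34 SE), and missed the threshold (edgeR adjusted p = 0.0613). Comparing TCDD 30 with TCDD 3, edgeR called 0 of the 7 genes, with 2 at unadjusted p under 0.05, and 4.87% of all genes. DESeq2 called 1 of the 7 there and limma-voom 0, and their shares of all genes are not given here.

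Against vehicle the log2 change of Ltc4s was -0.77 in TCDD 3 (95% interval -1.50 to -0.04), -1.07 in TCDD 10 (-1.83 to -0.32) and 0.32 in TCDD 30 (-0.37 to 1.02). None of these passed the test (edgeR adjusted p = 0.418, 0.178 and 0.605). Without vehicle replicate 3 the change in TCDD 30 was -0.000488, and the difference between TCDD 30 and TCDD 10 kept its call (log2 1.40, edgeR adjusted p = 0.00912). The call ended, at log2 changes of 1.21 to 1.65 and edgeR adjusted p of 0.0534 to 0.163, without vehicle replicate 2, without replicate 2 or 3 of TCDD 3, and without any 1 library of TCDD 10 or TCDD 30. It also ended with limma-voom (adjusted p = 0.0638), with the read index as a block in edgeR (adjusted p = 0.084) and with libraries scaled to pan-epithelial genes (adjusted p = 0.116).

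Counting error is large for this gene, since it had 13 to 73 counts per library. The lowest count, 13 in replicate 2 of TCDD 10, has an exact Poisson 95% interval of 6.92 to 22.2. The highest count in TCDD 30, 72, has one of 56.3 to 90.7.

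Exon length and markers of other cell types are given beside Ltc4s, and their part in its difference was not tested. Its merged exons are the shortest of the 7 genes, at 1014 bases, and 14.3% of the 449 protein-coding genes of similar exon length were called between TCDD 30 and TCDD 10, with a median log2 change of 0.27. Once each library's trend with exon length and GC content was removed, the Ltc4s difference was 1.02 and was not called (edgeR adjusted p = 0.158). The macrophage marker C1qa was 2.11-fold higher in TCDD 30 than in TCDD 10 (edgeR adjusted p = 0.00496), and 2 of 8 macrophage markers were called higher. Their summed level was 87.9 to 92.8 CPM in TCDD 30, 43.9 to 71.4 CPM in TCDD 10, 42.9 to 57.8 CPM in TCDD 3 and 57.7 to 84.1 CPM in vehicle, and none of the 8 was at 0 in any group. Within vehicle C1qa did not follow Ltc4s. It was at 11.5, 11.5 and 13.8 CPM in replicates 1 to 3, where Ltc4s was at 3.67, 3.38 and 1.37 CPM. Mast cells also express Ltc4s, and their 10 markers summed to 19.6 to 26.5 CPM in TCDD 30, 18.6 to 23.3 in TCDD 10, 17.2 to 26.0 in TCDD 3 and 9.62 to 20.1 in vehicle. Kit made up most of that sum in TCDD 10 and TCDD 30. In the 3 libraries of TCDD 30, Mcpt1 had 25, 6 and 31 counts, Tpsb2 had 5, 1 and 9 and Hdc had 6, 1 and 3, while Cpa3 and Ms4a2 had 0 in each. In the 3 libraries of TCDD 10, Mcpt1 had 37, 10 and 38 counts, Tpsb2 had 1, 0 and 1, Hdc had 3, 4 and 4, Cpa3 had 2, 1 and 6 and Ms4a2 had 0, 1 and 1.

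The rest of the cysteinyl leukotriene pathway had 1 call. Of 13 listed genes from phospholipase to receptors, all tested, edgeR called 0 against vehicle at any dose and 0 between TCDD 30 and TCDD 10, with 0, 1, 3 and 3 at unadjusted p under 0.05 in TCDD 3, TCDD 10 and TCDD 30 against vehicle and in the last comparison. The call was Mgst3, a microsomal glutathione transferase, which was 1.52-fold higher in TCDD 30 than in TCDD 3 (log2 0.61 ± 0.14 SE, edgeR adjusted p = 0.018). Alox5, the 5-lipoxygenase that starts the pathway, had mean levels of 2.06 CPM in vehicle and 2.48 CPM in TCDD 30. The log2 change of Alox5 between TCDD 30 and TCDD 10 was -0.24 (edgeR adjusted p = 0.747), and that of its activating protein Alox5ap was -0.01 (adjusted p = 0.997).

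Dclk1, the most widely used tuft cell marker, was lowest in TCDD 30. It was at 16.8, 16.4 and 17.9 CPM in vehicle, and at 23.6, 18.6 and 17.0 CPM in TCDD 3. It was at 21.1, 15.5 and 20.4 CPM in TCDD 10, and at 11.8, 13.9 and 14.5 CPM in TCDD 30. All 3 libraries of TCDD 30 lay below the other 9, and the share of all genes that separated in this way was not counted. The fold from TCDD 3 to TCDD 30 fell short of the limit (1.48-fold lower, log2 -0.56 ± 0.15 SE) although its edgeR adjusted p was 0.0353. Between TCDD 10 and TCDD 30 its fitted log2 difference was -0.51 ± 0.15 SE, not called (edgeR adjusted p = 0.0731), and against vehicle it was -0.35, with a 95% interval of -0.68 to -0.03 (adjusted p = 0.191). The change against vehicle was below 0 in all 24 alternative settings, between -0.44 and -0.25, and was called in 0 of them.

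Trpm5 had the widest spread of the 7 genes among the libraries of TCDD 30. It was at 23.6, 15.0 and 10.6 CPM in vehicle, and at 20.1, 17.5 and 19.0 CPM in TCDD 3. It was at 20.8, 33.5 and 32.3 CPM in TCDD 10, and at 16.0, 22.4 and 46.7 CPM in TCDD 30. The coefficient of variation was 40.3% in vehicle and 57.1% in TCDD 30, and both TCDD 10 and TCDD 30 overlapped vehicle. The fitted change was 1.77-fold higher in TCDD 10 (log2 0.82 ± 0.36 SE, edgeR adjusted p = 0.291) and 1.74-fold higher in TCDD 30 (log2 0.80 ± 0.36 SE, adjusted p = 0.217), which the test did not separate from 0. Without replicate 3 of TCDD 30 the change at that dose was 0.22.

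The level of Trpm5 varied with a score of circadian clock genes in vehicle, TCDD 10 and TCDD 30, though not in TCDD 3. This relation was looked for after its values were seen. A clock score was taken as the mean z-score of 8 genes that include Dbp and Per1 minus that of 4 genes that include Arntl and Npas2, and it was positive in 6 libraries and negative in 6. Among the negative libraries Trpm5 was 23.6 CPM in vehicle, 17.5 and 19.0 in TCDD 3, 33.5 and 32.3 in TCDD 10 and 46.7 in TCDD 30. Among the positive ones it was 15.0 and 10.6 CPM in vehicle, 20.1 in TCDD 3, 20.8 in TCDD 10 and 16.0 and 22.4 in TCDD 30. With the score added to the model, Trpm5 fell by 0.18 ± 0.05 SE on the log2 scale per unit of score (edgeR adjusted p = 0.0457). It was the 1 gene of the 7 that passed, a share near the 10.5% of all genes that passed. The score cannot be told apart from other differences between these libraries. In the same model the Trpm5 slope over dose rank was called, at a log2 change of 0.86 from vehicle to TCDD 30 (edgeR adjusted p = 0.0396). Without the score that change was 0.91 and was not called (edgeR adjusted p = 0.143). The Trpm5 slope was called in 1 of 23 alternative settings. The share of all genes that the slope called in the model with the score is not given here.

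**Figure D2:**
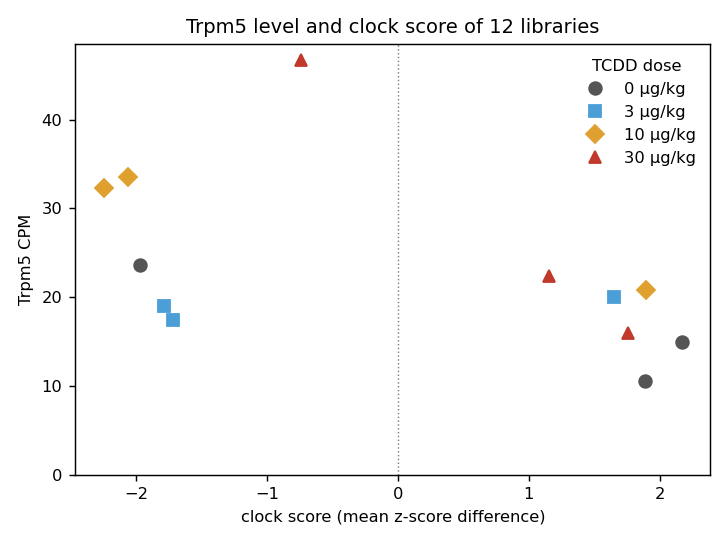
CPM of Trpm5 (vertical axis, from 0) against the clock score of each library (horizontal axis, difference of mean z-scores); symbols and colours give the TCDD dose. In vehicle, TCDD 10 and TCDD 30 the libraries with a negative score sit above those of the same dose with a positive score, up to 46.7 CPM.

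The other 4 genes gave narrow or imprecise changes, and each range in TCDD 30 overlapped that of vehicle. Sh2d6 had a mean of 5.20 ± 0.82 CPM in vehicle and 5.48 ± 0.59 CPM in TCDD 30 (SD, n = 3), and its log2 change of 0.08 (95% interval -0.42 to 0.57) turned to -0.02 when libraries were scaled to pan-epithelial genes. Avil had 8.21 ± 2.33 CPM in vehicle and 7.69 ± 0.82 CPM in TCDD 30 (SD, n = 3), a log2 change of -0.09 (95% interval -0.59 to 0.41). In TCDD 3 and TCDD 10 the means of both genes were higher than in vehicle, with Sh2d6 at 6.97 and 6.93 CPM and Avil at 9.28 and 9.89 CPM, and neither passed the test.

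Il17rb was at 2.76, 2.78 and 2.05 CPM in vehicle and at 3.92, 3.10 and 2.82 CPM in TCDD 3. It was at 3.31, 2.32 and 2.82 CPM in TCDD 10 and at 1.63, 3.38 and 2.08 CPM in TCDD 30. In TCDD 3 the Il17rb change against vehicle was 0.37 on the log2 scale (95% interval -0.23 to 0.96, edgeR adjusted p = 0.643), and was not called. In TCDD 30 its change was -0.13 (95% interval -0.74 to 0.48).

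Pou2f3 had the lowest level of the 7 genes, with 15 to 44 counts per library. It was at 1.13, 1.39 and 1.31 CPM in vehicle and at 2.11, 2.57 and 1.17 CPM in TCDD 3. It was at 2.30, 1.60 and 1.72 CPM in TCDD 10 and at 1.79, 1.60 and 0.821 CPM in TCDD 30. In TCDD 10 the fitted change against vehicle was 1.46-fold and was not called (edgeR adjusted p = 0.465). In TCDD 30 the log2 change was 0.12, and its 95% interval ran from -0.66 to 0.91, or 0.634-fold to 1.87-fold. Comparing TCDD 10 with TCDD 3 called 0 of the 7 genes (0 with unadjusted p under 0.05, 0 by DESeq2 and 0 by limma-voom), where edgeR called 0.158% of all genes.

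**Figure D3:**
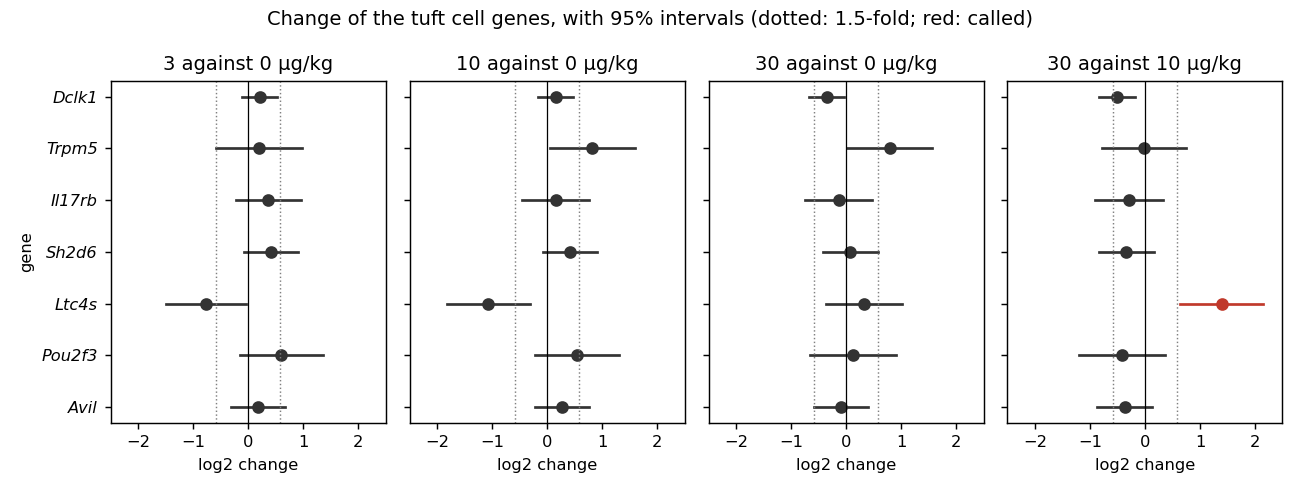
Log2 change (horizontal axis) of each tuft cell gene (vertical axis) in 4 comparisons between doses in µg/kg; points are edgeR estimates, lines are 95% intervals, dotted lines mark 1.5-fold and red marks a call. Ltc4s between TCDD 30 and TCDD 10, at 1.40, is the 1 call.

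Over the 12 libraries 5 of the genes varied in the same sense, while pairs with Trpm5 or Ltc4s gave lower values. Because the 5 leave out Trpm5 and Ltc4s, the range of their r follows in part from that choice. Among Dclk1, Il17rb, Sh2d6, Pou2f3 and Avil, the 10 pairwise Pearson's r of log2 CPM over 12 libraries lay between 0.41 and 0.86, with a median of 0.58. With each group's mean taken away all 10 stayed above 0, between 0.16 and 0.85. Sh2d6 and Avil were the closest pair (Pearson's r 0.86 and Spearman's rho 0.82 over 12 libraries, and Pearson's r 0.77 over 10 without the 2 libraries farthest from the Sh2d6 median). Pairs with Ltc4s ran from -0.57 to 0.11, and pairs with Trpm5 from -0.31 to 0.19. With group means removed, 5 of the 6 pairs with Ltc4s were above 0, up to 0.67 with Avil. The median of the Ltc4s pairs was then 0.42, beside 0.28 for pairs with Dclk1 and 0.18 for pairs with Pou2f3. Trpm5 and Pou2f3 gave -0.69. These are descriptions, because genes of 1 library share its depth, its cell composition and its base composition bias.

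**Figure D4:**
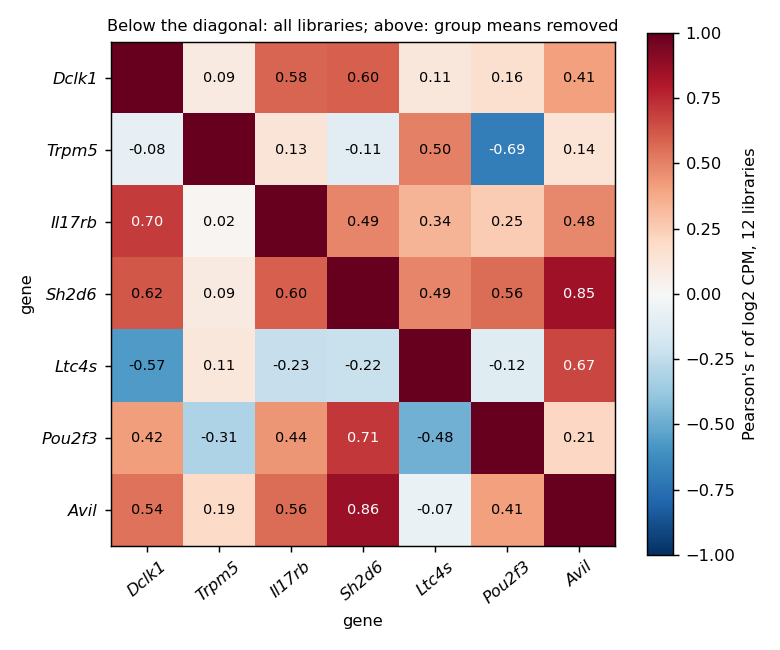
Pearson's r of log2 CPM between each pair of tuft cell genes over 12 libraries, with both axes listing the genes and colour giving r from -1 to 1. Values below the diagonal use all libraries as they are and those above it use libraries with group means removed; Sh2d6 and Avil give 0.86 and 0.85.

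Among 11192 genes with a mean count of at least 50, those whose pattern was close to the mean of the 7 included Itgb6 (Pearson's r 0.85 over 12 libraries), Topors (0.83), Ankra2 and Pdpr (0.82), Ngly1 and Ccnj (0.80), and Tapt1 and Pex11g (0.79). Of the 22 listed tuft genes outside the 7 that were abundant enough, 4 had r over 0.5 (18.2%, beside 4.99% of all genes), among them Matk, Strip2 and Kctd12, and the median of the 22 was 0.04. Among the nearest to single genes were Tmx1 (0.92), Sh2d7 (0.90) and Serinc1 (0.90) for Dclk1, Zmym5 (0.93), Clstn1 (0.89) and Ikbke (0.89) for Trpm5, and Ing2 (0.89) and Laptm4b (0.87) for Il17rb. They were Grsf1 (0.91), Itgb6 (0.88) and Avil (0.86) for Sh2d6, Ints5 (0.97), Foxp4 (0.95) and Zfp703 (0.92) for Ltc4s, Rab18 (0.84), Ppp1r2 (0.83) and Rc3h1 (0.82) for Pou2f3, and Itgb6 (0.89), Sh2d6 (0.86) and Paqr4 (0.83) for Avil.

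Wider lists of tuft cell genes gave 2 calls against vehicle. Of 40 such genes outside the 7, 33 were tested, and their median log2 change was 0.00 in TCDD 3, 0.09 in TCDD 10 and 0.08 in TCDD 30. None was called in TCDD 3 or TCDD 10, with 1 and 2 at unadjusted p under 0.05. Both calls were in TCDD 30 and lower, where 6.06% of the 33 genes were called beside 3.97% of all genes, and 6 of the 33 had unadjusted p under 0.05. Spib, an Ets factor found in tuft cells and also in B and plasmacytoid dendritic cells, fell 2.25-fold (log2 -1.17 ± 0.32 SE, edgeR adjusted p = 0.0471). Its level was 5.08, 9.49 and 14.6 CPM in vehicle and 4.09, 4.44 and 4.44 CPM in TCDD 30, so that vehicle was widely spread and all 3 treated libraries were lower. All 7 tested B and plasma cell markers had negative changes in TCDD 30, with a median of -1.88 and 0 called, and their part in the Spib difference was not tested. Vav1, a guanine nucleotide exchange factor of tuft and blood cells, fell 1.53-fold (log2 -0.61 ± 0.16 SE, edgeR adjusted p = 0.0461).

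By role, 1 of 4 tested transcription factors was called lower in TCDD 30 (Spib), 0 of 9 chemosensing genes were called, 0 of 6 genes of secreted products were called, and 1 of 14 signalling and surface genes was called lower (Vav1). In the chemosensing list the largest change in TCDD 30 was that of Plcg2, a phospholipase (log2 0.66, edgeR adjusted p = 0.123), which also had the highest mean level per length, 13.6 CPM per kilobase. Among genes of secreted products Chat, the acetylcholine synthase, had the largest change (log2 -1.11, edgeR adjusted p = 0.273) and Ptgs1, a cyclooxygenase, the highest mean level per length, 2.32 CPM per kilobase. The cytokine Il25 had 0 to 3 counts per library and was not tested. Cd24a, a surface protein of tuft and other epithelial cells, passed the test of any difference (edgeR adjusted p = 0.0234). Cd24a was at 53.3 to 60.1 CPM in vehicle and 79.1 to 84.0 CPM in TCDD 30, a log2 change of 0.54 that stayed under 1.5-fold.

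The circuit that links tuft cells to type 2 immunity had its type 2 cytokines at or near 0 counts. Of 16 listed genes 11 were tested, and 1 was called in TCDD 30 against vehicle, 2 against TCDD 10 and 1 against TCDD 3, where 3.97%, 2.77% and 4.87% of all genes were called. Il13 had 0 counts in all 12 libraries, and Il4 and Il5 had at most 3 and 1. A count of 0 allows up to 3 counts, which is 0.135 to 0.257 CPM depending on the library and covers counting error only. Il17ra, the receptor subunit that pairs with Il17rb, fell 1.51-fold in TCDD 30 against vehicle (log2 -0.60 ± 0.13 SE, edgeR adjusted p = 0.0164). Its level was 25.9 to 32.0 CPM in vehicle and 18.2 to 22.0 CPM in TCDD 30, without overlap. Il13ra1, an interleukin-13 receptor subunit, was 1.62-fold lower in TCDD 30 than in TCDD 10 (log2 -0.70 ± 0.18 SE, edgeR adjusted p = 0.0427) and was also called lower than in TCDD 3 (adjusted p = 0.0242). Retnlb, a goblet cell product that rises in type 2 responses, had 10 to 14 counts in TCDD 10, 0 in all 3 libraries of TCDD 30 and 0 to 7 elsewhere (TCDD 30 against TCDD 10, edgeR adjusted p = 0.0273). Goblet Clca1, another interleukin-13 target, had log2 changes of 0.03 in TCDD 30 against vehicle (edgeR adjusted p = 0.932) and -0.12 against TCDD 10.

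Markers of the other secretory lineages are given beside the tuft cell genes because those lineages share the crypts with them. In TCDD 30 against vehicle, 7 of 8 Paneth cell markers were called higher, with a median log2 change of 1.55, and 6 of 8 enteroendocrine markers were called higher, with a median of 0.74. Goblet markers had 4 of 8 called higher and a median of 0.63, whereas the 7 tuft cell genes had 0 called and a median of 0.08. Ang4, a Paneth cell antimicrobial, rose 5.02-fold and Cck, an enteroendocrine hormone, 2.13-fold. None of 8 pan-epithelial genes or 8 enterocyte markers was called, with medians of 0.10 and 0.04. Over all genes tested, 3.97% were called in TCDD 30 against vehicle. The difference between the lists was not tested. The lists also differed in depth, and a change is called less readily at low counts. In vehicle the summed levels were 43.4 to 64.1 CPM over the 7 tuft cell genes and 134 to 146 CPM over the enteroendocrine markers. They were 703 to 1070 CPM over the Paneth cell markers and 12770 to 16700 CPM over the goblet markers. Exon length moved with the calls of these lists. The median exon length was 818 bases over the Paneth cell markers, 1798 over the goblet and 2112 over the enteroendocrine markers, and 3398 over the 7 tuft cell genes, while the median log2 change in TCDD 30 against vehicle was 1.04 over protein-coding genes under 600 bases and -0.04 over those above 4000. With each library's trend with exon length and GC content removed, a setting chosen after seeing the data, edgeR called 3.29% of all genes. There 7 Paneth, 4 goblet and 5 enteroendocrine markers were called higher, with medians of 1.37, 0.51 and 0.67. In that setting 0 of the 7 tuft cell genes were called, with a median of -0.05.

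**Figure D5:**
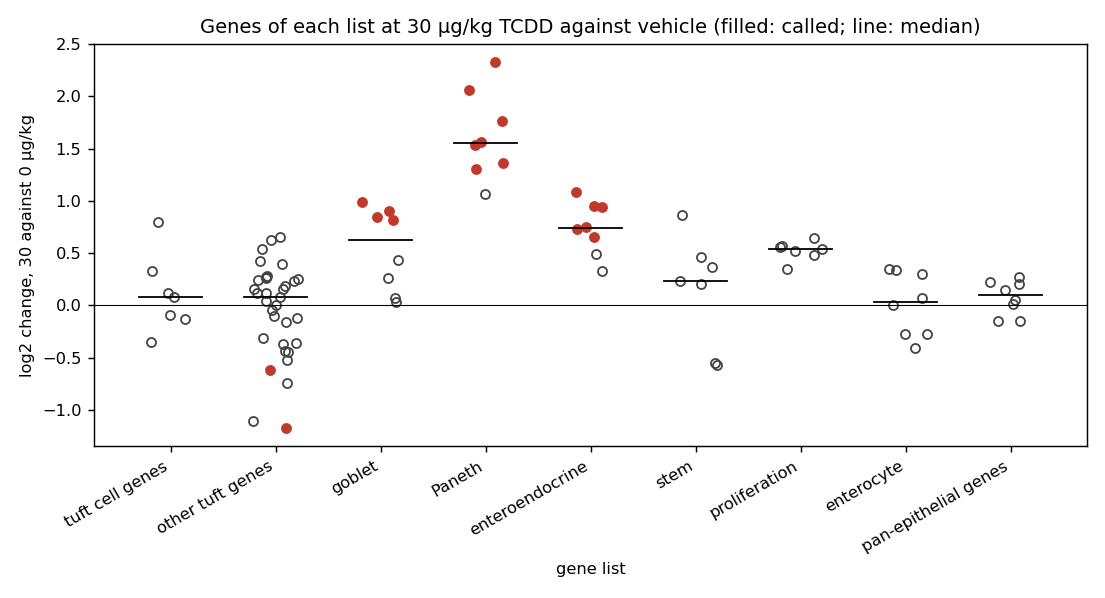
Log2 change at 30 µg/kg TCDD against vehicle (vertical axis) of the tested genes of each list (horizontal axis); filled red points were called, open ones were not, and lines are list medians. The tuft cell genes lie between -0.35 and 0.80 around a median of 0.08, and the Paneth cell markers lie between 1.07 and 2.33.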

How the data were processed

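RNA from 12 libraries of ileal epithelial scrapings was sequenced by the authors. They deposited 1 file of unnormalized counts per library, with reads summed by Ensembl gene. Per the submitters' processing notes, FastQC 0.11.3, Trimmomatic 0.33, TopHat2 2.1.0, SAMtools 1.2.0, HTSeq 0.6.1 and build GRCm38 were used; the strand setting is not given in the sources used here. Of the entries in the files, 60.3% to 64.6% named no gene (outside genes, ambiguous or not unique) and were left out. Identifiers were matched to GENCODE M21 (45229 of 46078). No pair of libraries agreed within sampling noise.

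Counts were analysed here with edgeR 4.0.16 (R 4.3.3): filterByExpr, TMM scaling and 1 quasi-likelihood model of 4 groups over all 12 libraries, which left 15823 genes tested. CPM used TMM-scaled library sizes. Correlations used log2 CPM with a prior count of 2. Scripts were tested on simulated data. Named genes were the 7 genes, every listed gene called in a comparison (else those with the largest change in TCDD 30 and the highest mean), and those nearest in pattern, some of which are not reported here; some lists are given by counts alone. The genes and lists were chosen with earlier results of these data known. P-values measure the spread between the libraries of a dose, which the labels call biological replicates. Where groups are said not to overlap, the share of all genes that did the same was not counted. Alternatives were other scaling, filters and covariates, DESeq2 1.42.0, limma-voom (limma 3.58.1), fits of the compared groups alone, length and GC offsets, and leaving out each library.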

Additional observations from a re-analysis of the deposited data

How the results depend on the processing

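No call of the 7 genes against vehicle was made under any alternative. Between TCDD 30 and TCDD 10 the count of 1 (Ltc4s) became 0 when libraries were scaled to pan-epithelial genes, with limma-voom, with the read index as a block, and with the length and GC trend removed, and it was 0 to 1 when single libraries were left out; the cause was not tested. Between TCDD 30 and TCDD 3 the count of 0 became 1 (Ltc4s) with no filter, with at least 10 counts in every library, with DESeq2 and with the compared groups alone, and 2 (Dclk1 and Ltc4s) with the clock score as a covariate; leaving out single libraries gave 0 to 1 (Ltc4s when vehicle replicate 3 was absent, Dclk1 when replicate 3 of TCDD 3 was). The count for any difference became 1 (Ltc4s) with no filter and with at least 10 counts in every library, 2 (Dclk1 and Ltc4s) with DESeq2 and 2 with the clock score, and 0 to 1 without single libraries. The dose trend count became 1 (Trpm5) with the clock score. The share of all genes called under each alternative is not given in this section, so these counts cannot be set against it.

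Of 504 changes of single genes against vehicle under alternatives, 493 kept their direction and 11 reversed. None of the 11 was called. Scaling to pan-epithelial genes gave -0.0236 for Sh2d6 in TCDD 30, and removing the length and GC trend gave -0.0479. The other reversals came from leaving out single libraries, with ranges of -0.0492 to 0.543 for Trpm5 and -0.0429 to 0.375 for Avil in TCDD 3. In TCDD 30 the ranges were -0.445 to 0.0855 for Il17rb, -0.0445 to 0.154 for Sh2d6, -0.000488 to 0.563 for Ltc4s, -0.123 to 0.41 for Pou2f3 and -0.28 to 0.134 for Avil.

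Depth limits Ltc4s, Pou2f3 and Il17rb, which had at most 73, 44 and 60 counts in a library. The labels carry no replicate numbers. Those used here follow accession order and coincide with the read index, so the read index served as the replicate block, which does not pair animals. With it the count between TCDD 30 and TCDD 10 was 0 (Ltc4s log2 1.4, edgeR adjusted p = 0.084), and every other count of calls stayed at 0.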

Other observations

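Other listed cell types were measured in TCDD 30 against vehicle with the same test, where 3.97% of all genes were called. T cell markers had 2 of 7 tested genes called higher (Cd3g and Gzmb), with log2 changes of 0.71 and 0.66. Of 4 tested pancreatic acinar markers 3 were called lower, and 1 of 3 tested mast cell markers, Kit, was called higher at 1.12. The other 2 tested mast cell markers had negative changes, down to -1.74, and were not called. Of 7 stem cell, 7 proliferation, 8 macrophage, 2 eosinophil, 2 enteric neuron and glia, 8 smooth muscle, 6 fibroblast and 12 clock genes tested, 0 were called there. The stem cell list had 2, the proliferation list 4, the macrophage list 4, the eosinophil list 2 and the neuron list 1 at unadjusted p under 0.05, and the others had 0. Among AhR targets 4 of 6 were called higher. Siglecf, placed here on the eosinophil list, was 2.14-fold lower in TCDD 30 than in TCDD 10 (log2 -1.10 ± 0.26 SE, edgeR adjusted p = 0.0316). It was also called lower than in TCDD 3 (log2 -0.98). Its level was 2.04 to 2.35 CPM in TCDD 30, 3.77 to 5.26 in TCDD 10, 3.33 to 5.735 in TCDD 3 and 2.84 to 4.68 in vehicle. The other tested gene of that list had a positive change against TCDD 10 (log2 0.77), and Epx and Ear1 had at most 1 and 0 counts in a library. The cell type that the Siglecf reads came from was not tested.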
